A study of Mus musculus with 9 samples.

Results

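The 10 genes described here are Rspo3, Lgr5, Rnf43, Znrf3, Axin2, Tbx3, Glul, Oat, Rgn and Rhbg, which encode a ligand, a receptor, feedback regulators and metabolic proteins of Wnt-dependent pericentral hepatocytes. They were chosen by name, as parts or targets of the pathway, but with earlier results of these data known. Their counts and medians are therefore descriptions beside those of all genes, and not an unbiased contrast. All 10 were found among the 17046 genes listed in either table of the series. All 10 also passed the expression minimum, 1 FPKM in at least 3 libraries, in each comparison. FPKM scales reads to gene length and library total, so levels can be set side by side between genes.

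Total liver RNA of mice was sequenced in 9 libraries, 3 in each of 3 groups, and a library is called a liver below. The first group carried the Mettl3 virus and was ethanol-fed, the second carried the control virus and was ethanol-fed, and the third carried the control virus and was pair-fed. All mice were wild type and received an AAV8 vector by the tail vein, with the TBG promoter, which is active in hepatocytes, so the vector was built to act in hepatocytes and not in the endothelial or stellate cells of the liver. The vector held either Mettl3 with a 3×FLAG tag and a WPRE element or the same backbone with an empty cloning site (MCS-3×FLAG-WPRE). Diets began 3 weeks later and ran for 10 days, closing with 1 dose of ethanol for the ethanol-fed mice and of maltose for the pair-fed mice. The sample titles read Mettl3OE or WT and name no virus. Strain, sex and age are not given in the sources used here, and no label says that replicates came from separate animals, so p-values measure only the spread between these samples. No group received the Mettl3 virus without ethanol.

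In the liver lobule, blood flows past hepatocytes from the portal tract to the central vein, and hepatocytes along this path divide their metabolic work. Endothelial cells of the central vein secrete Wnt2, Wnt9b and R-spondin 3, which stabilise beta-catenin in the nearest hepatocytes and turn on the pericentral programme. LGR4 and LGR5 bind R-spondins and clear the ubiquitin ligases RNF43 and ZNRF3, which otherwise remove Frizzled receptors from the cell surface. Axin2, Lgr5, Rnf43 and Znrf3 are themselves Wnt targets, so their transcripts serve as readouts of the pathway, and Glul, Oat, Rgn and Rhbg are metabolic genes of the pericentral layer. The libraries were made from whole liver, so they give no position in the lobule, and the label pericentral rests on what is known of these genes.

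Mettl3, the gene of the enzyme subunit that writes m6A onto nuclear RNA, was at 38.5, 24.98 and 33.3 FPKM in the 3 Mettl3-virus livers. It was at 5.44, 4.86 and 3.78 FPKM in the control-virus ethanol-fed livers and at 3.97, 3.10 and 3.38 FPKM in the pair-fed livers, so no library went against its virus group. The ethanol-fed and pair-fed control-virus livers overlapped, so these levels do not check the diet labels. Whole reads could be recovered from the deposited values, and they summed to between 34656480 and 38159563 per library over the listed genes. Markers of hepatocytes were abundant, as the tissue label says, with a summed level of 78349 to 89552 FPKM in Mettl3-virus livers, 79752 to 91495 in ethanol-fed livers and 73583 to 83097 in pair-fed livers. Across genes, Mettl3-virus liver 3 lay nearer to the pair-fed livers than the other livers of its group did. Its Pearson's r with them was 0.950 to 0.964, against 0.899 to 0.926 for Mettl3-virus livers 1 and 2. Among control-virus ethanol-fed livers, liver 1 lay nearest to the pair-fed livers, with r of 0.949 to 0.960, against 0.926 to 0.949 for livers 2 and 3.

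The members lay in 2 ranges of abundance. In pair-fed livers Rgn averaged 676 FPKM, Glul 596 and Oat 460.1, whereas the other 7 members averaged between 2.63 FPKM, in Znrf3, and 8.66 FPKM, in Tbx3. Within the lower range the order in pair-fed livers was Tbx3, Rnf43, Rhbg, Lgr5, Rspo3, Axin2 and Znrf3, and of neighbouring genes in that order only Rnf43 and Rhbg had livers that did not overlap. By mean level the order was different in both ethanol-fed groups, where Glul was first and Rgn below Oat, and where Rspo3 stood above Rnf43, Lgr5 and Axin2. The reads behind a value ran from 133 to 1966 for the 7 low genes and from 17989 to 64292 for the 3 abundant ones.

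**Figure D1:**
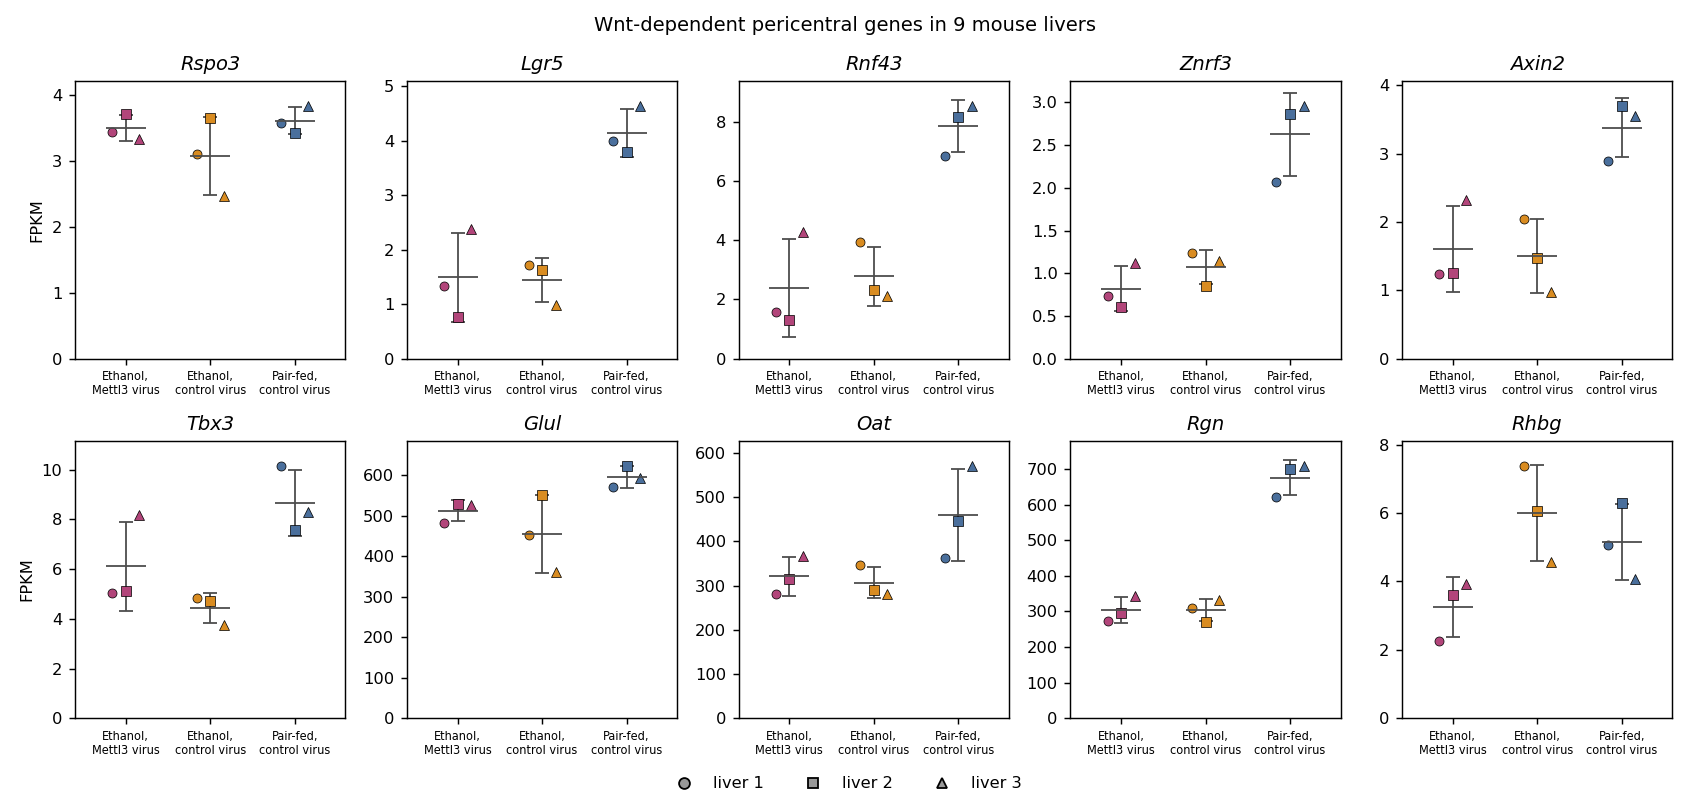
FPKM of each of the 10 genes (vertical axes, each from 0) in the 9 livers, by group, with circles, squares and triangles for livers 1, 2 and 3 and bars for the mean ± SD (n = 3). Lgr5, Rnf43, Znrf3, Axin2, Rgn and, narrowly, Glul stood lower in all 6 ethanol-fed livers than in any pair-fed liver. Rspo3 overlapped between all groups, and Rhbg was lowest in the Mettl3-virus livers.

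RefSeq promoter windows of build GRCm38.p6, from 250 bases before to 50 bases after the transcript start, were at hand for 4 of the members. They show the DNA next to transcript starts of Axin2, Rnf43 and Oat, lower under ethanol, and of Glul, which was not called. The 50 bases after each start are in capitals. The Axin2 window lies inside the gene's interval, which begins at 108917828, so it is not at the interval's first base.
Axin2, chr11:108920099-108920398, plus strand: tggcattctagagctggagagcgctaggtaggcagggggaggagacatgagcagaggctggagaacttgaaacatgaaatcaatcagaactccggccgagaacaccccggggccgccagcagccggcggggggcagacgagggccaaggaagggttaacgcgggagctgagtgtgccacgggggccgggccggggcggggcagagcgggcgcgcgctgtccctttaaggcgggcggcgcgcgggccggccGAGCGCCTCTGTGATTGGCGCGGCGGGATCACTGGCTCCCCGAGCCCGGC
Rnf43, chr11:87662837-87663136, plus strand: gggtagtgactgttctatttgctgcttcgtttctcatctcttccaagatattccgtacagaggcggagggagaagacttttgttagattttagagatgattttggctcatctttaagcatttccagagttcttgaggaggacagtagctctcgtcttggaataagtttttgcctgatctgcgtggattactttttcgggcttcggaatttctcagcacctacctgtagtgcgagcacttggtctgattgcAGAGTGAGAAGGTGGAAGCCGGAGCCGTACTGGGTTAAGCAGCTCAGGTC
Glul, chr1:153899679-153899978, plus strand: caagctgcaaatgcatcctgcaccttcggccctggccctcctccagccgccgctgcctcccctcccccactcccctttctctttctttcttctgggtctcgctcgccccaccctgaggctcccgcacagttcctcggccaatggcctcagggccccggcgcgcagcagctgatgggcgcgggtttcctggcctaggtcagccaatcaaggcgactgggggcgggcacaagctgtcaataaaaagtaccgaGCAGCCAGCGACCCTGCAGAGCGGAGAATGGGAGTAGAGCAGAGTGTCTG
Oat, chr7:132576349-132576648, minus strand: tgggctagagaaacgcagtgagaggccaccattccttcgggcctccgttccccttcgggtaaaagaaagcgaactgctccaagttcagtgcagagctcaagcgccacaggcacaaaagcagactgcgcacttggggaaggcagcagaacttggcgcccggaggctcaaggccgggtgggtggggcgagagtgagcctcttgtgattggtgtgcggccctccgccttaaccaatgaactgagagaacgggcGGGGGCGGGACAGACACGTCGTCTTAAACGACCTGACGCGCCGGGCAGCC
The letters CTTTG, the core of the DNA site that TCF and LEF partners of beta-catenin bind, were searched on both strands, and so was the longer form with A or T at each of the next 2 bases. None of these windows held the core, nor did the second window of Rnf43, at chr11:87699647-87699946. The core was in 47.6% of 10428 windows of genes tested, and the longer form, which contains it, in 12.2%. The windows differed in base content, with 70.0% G and C and 31 CpG pairs for Axin2, 64.3% and 17 for Glul, 61.7% and 22 for Oat, and 46.7% and 10 for the first Rnf43 window. The median window of genes tested held 60.3% G and C and 20 CpG pairs. These letters describe short windows and say nothing about binding elsewhere.

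In control-virus mice, the question was what the ethanol diet and its closing binge did to these genes. Of the 10 members, 7 were lower in ethanol-fed livers (Axin2, Lgr5, Rnf43, Znrf3, Tbx3, Oat and Rgn), 0 were higher, and Glul, Rhbg and Rspo3 did not pass the test. The receptor and ligase genes fell furthest: mean FPKM of Lgr5 and Rnf43 in ethanol-fed livers was 34.9% and 35.5% of that in pair-fed livers. The test was limma's moderated test on log2(FPKM + 1) over 10064 genes, with a gene called at a Benjamini-Hochberg adjusted p under 0.05. Of all genes tested, 26% were called lower and 10% higher. The median log2 fold change was -0.81 over the members and -0.14 over all genes. After median-ratio scaling, which moves the median of all genes to 0.01, the members' median was -0.68. On that scale 6 of 10 were lower, with Oat no longer called, where 16.7% of all genes were lower and 17.6% higher. In bulk liver, fewer cells of a type and less RNA per cell cannot be told apart.

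Rspo3 (Entrez 72780, chromosome 10, 29453106 to 29535867, GRCm38), the R-spondin ligand that non-parenchymal cells of the central vein make, had 3.11, 3.64 and 2.47 FPKM in ethanol-fed livers, against 3.57, 3.42 and 3.82 in pair-fed livers. The groups overlapped, with ethanol-fed liver 2 above 2 of the pair-fed livers. The log2 fold change was -0.19 (SE 0.13, 95% interval -0.48 to 0.11, limma's adjusted p = 0.275). The interval reaches from a moderate decrease to a slight increase, so the data do not show that Rspo3 stayed level.

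Lgr5 (Entrez 14160, chromosome 10, 115450314 to 115587780), the R-spondin receptor that marks hepatocytes next to the central vein, had 1.73, 1.63 and 0.987 FPKM in ethanol-fed livers, against 3.99, 3.80 and 4.64 in pair-fed livers. Every ethanol-fed liver was below every pair-fed one, with a wide gap. Lgr5 fell by 1.08 on the log2 scale (SE 0.14, limma's adjusted p = 0.00257). It shares 12469 bases with A930009A15Rik, which has no values here.

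Rnf43 (Entrez 207742, chromosome 11, 87663087 to 87735539) and Znrf3 (Entrez 407821, chromosome 11, 5276329 to 5444847) encode the paired ubiquitin ligases that R-spondins inhibit. Rnf43 had 3.92, 2.31 and 2.10 FPKM in ethanol-fed livers, against 6.85, 8.14 and 8.51 in pair-fed livers. Znrf3 had 1.23, 0.855 and 1.15 FPKM in ethanol-fed livers, against 2.07, 2.86 and 2.95 in pair-fed livers. For neither ligase did the groups overlap, and ethanol-fed liver 1 was the highest of its group for both. Rnf43 fell by 1.25 (SE 0.19, limma's adjusted p = 0.00359) and Znrf3 by 0.80 (SE 0.13, limma's adjusted p = 0.00506), both as log2(FPKM + 1), a scale on which folds of low genes come out too small. An lncRNA, 1110028F11Rik, shares 5804 bases with Rnf43 and was at 0.0691 to 0.572 FPKM in the 9 livers.

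Axin2 (Entrez 12006, chromosome 11, 108917828 to 108950783), a scaffold of the beta-catenin destruction complex and a feedback target in most Wnt-responsive tissues, had 2.05, 1.48 and 0.978 FPKM in ethanol-fed livers, against 2.89, 3.69 and 3.55 in pair-fed livers. The highest ethanol-fed liver stayed below the lowest pair-fed one. Axin2 fell by 0.82 (SE 0.17, limma's adjusted p = 0.0102).

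Tbx3 (Entrez 21386, chromosome 5, 119670534 to 119684724), a T-box repressor that acts downstream of beta-catenin in pericentral hepatocytes, had 4.83, 4.71 and 3.75 FPKM in ethanol-fed livers, against 10.1, 7.55 and 8.28 in pair-fed livers. The groups stood well apart, and Tbx3 fell by 0.83 (SE 0.14, limma's adjusted p = 0.00505). Its antisense neighbour Tbx3os1, an lncRNA that shares 975 bases with it, had 0.368, 0.562 and 0.273 FPKM in ethanol-fed livers, against 6.67, 8.05 and 6.24 in pair-fed livers. These values rest on 31 to 64 reads in ethanol-fed livers and 710 to 909 in pair-fed livers. Tbx3os1 thus fell much further than Tbx3, with a log2 fold change of -2.51 (SE 0.13, limma's adjusted p = 0.000172). It met the expression minimum only with all 3 pair-fed livers present. Whether the counting used strand is not stated, so reads in the shared bases cannot be told apart.

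Glul (Entrez 14645, chromosome 1, 153899929 to 153909723) encodes glutamine synthetase, which fixes the ammonia that escapes the urea cycle in the last hepatocytes before the central vein. It had 453, 551 and 361 FPKM in ethanol-fed livers, against 571, 623 and 594.5 in pair-fed livers. All 3 ethanol-fed livers were below the pair-fed ones, but liver 2 only narrowly so, and the ethanol-fed livers had a coefficient of variation of 20.9% against 4.41% in pair-fed livers. The log2 fold change was -0.41 (SE 0.16, 95% interval -0.78 to -0.04) and was not called (limma's adjusted p = 0.0775). Without ethanol-fed liver 2 it was -0.56 with adjusted p = 0.0274, whereas adjusted p over all alternatives ranged from 0.0274 to 0.262.

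Oat (Entrez 18242, chromosome 7, 132557475 to 132576398), the mitochondrial ornithine aminotransferase, which forms glutamate from ornithine, had 348, 290.3 and 282 FPKM in ethanol-fed livers, against 363, 446 and 571 in pair-fed livers. The groups did not overlap, although ethanol-fed liver 1 came close to pair-fed liver 1. Oat fell by 0.57 (SE 0.18, limma's adjusted p = 0.0410), the weakest of the 7 calls. The call was lost under median-ratio scaling (-0.38), when ethanol-fed liver 2 (-0.53) or 3 (-0.51) or pair-fed liver 2 (-0.58) or 3 (-0.40) was left out. With the fold unchanged it was also lost with no filter on low values (limma's adjusted p = 0.0659) and with the replicate block (adjusted p = 0.0767), and adjusted p ran from 0.0225 to 0.129 over all alternatives.

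Rgn (Entrez 19733, chromosome X, 20549766 to 20562089), which encodes regucalcin, a calcium-binding gluconolactonase of the ascorbate pathway, had 309, 272 and 332 FPKM in ethanol-fed livers, against 619.8, 699 and 708 in pair-fed livers. The livers within each group were close together and the groups far apart. Rgn fell by 1.15 (SE 0.11, limma's adjusted p = 0.00110), the smallest adjusted p among the members.

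Rhbg (Entrez 58176, chromosome 3, 88242874 to 88254739), an ammonium transporter of the pericentral hepatocyte membrane, had 7.38, 6.06 and 4.58 FPKM in ethanol-fed livers, against 5.07, 6.29 and 4.07 in pair-fed livers. The groups overlapped, and Rhbg was the only member with a positive log2 fold change, 0.19 (SE 0.19, 95% interval -0.25 to 0.62, limma's adjusted p = 0.462).

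Setting the test aside, 8 of the 10 members had all 3 ethanol-fed livers below all 3 pair-fed livers, where 37.2% of all genes tested did so. The calls of Axin2, Lgr5, Rnf43, Znrf3, Tbx3 and Rgn held in every alternative, with limma's adjusted p at most 0.0473. In the authors' deposited table, these 6 genes were also lower at q under 0.05, with 12.6% of all listed genes lower, while Oat had q = 0.0958 and Glul q = 0.381. The authors' DESeq2 test used the same livers and scales them differently, so it is no independent measurement.

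**Figure D2:**
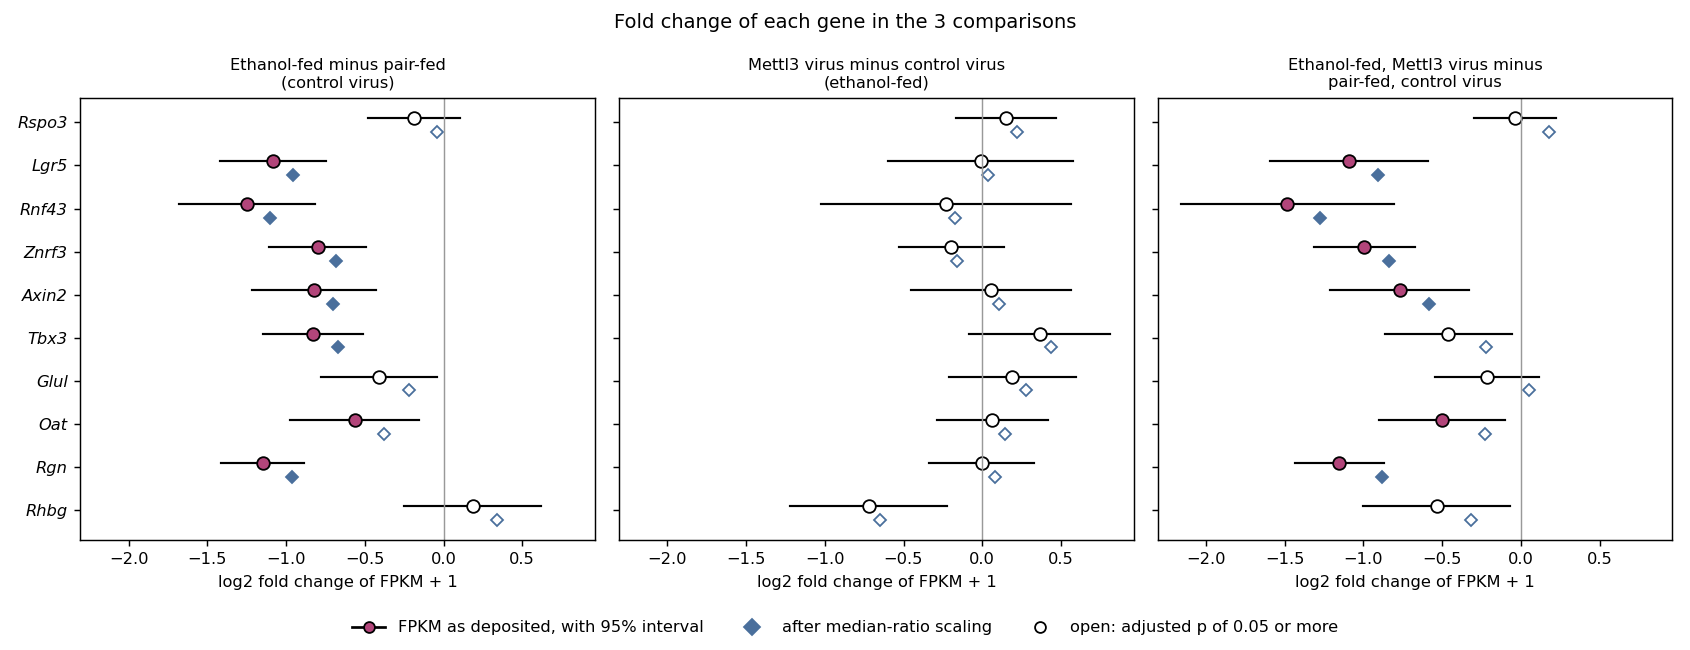
Log2 fold change of FPKM + 1 (horizontal axis) with its 95% interval for each of the 10 genes in the 3 comparisons, from limma; filled circles are called at an adjusted p under 0.05, and diamonds give the value after median-ratio scaling. Filled circles stand at -0.57 or below in ethanol-fed minus pair-fed livers, none is filled in Mettl3-virus minus control-virus livers, and 6 are filled in Mettl3-virus minus pair-fed livers.

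The second comparison asked whether the Mettl3 virus changed these genes under ethanol. None of the 10 members was called in limma, where 9706 genes were tested and Mettl3 itself was the single gene called. Of all genes tested, 0.0103% were called higher and 0% lower. At an unadjusted p under 0.05 in limma, 1 member passed, Rhbg, as did 7.45% of all genes tested. At q under 0.05 in the authors' deposited table, 0 members were called, with 0.103% of all listed genes higher and 0.51% lower. Unadjusted p-values of the authors' DESeq2 test in the deposited table were 0.0105 for Tbx3 and 0.00266 for Rhbg, with q of 0.359 and 0.191. With 3 livers a group the intervals are wide, so these results do not show that the members stayed level.

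Rhbg had 2.25, 3.60 and 3.92 FPKM in Mettl3-virus livers, against 7.38, 6.06 and 4.58 in control-virus ethanol-fed livers. Every Mettl3-virus liver was below every control-virus one, and their mean of 3.26 ± 0.884 FPKM was 54.2% of the 6.00 ± 1.40 FPKM in control-virus livers (SD, n = 3 each). The log2 fold change was -0.72 (SE 0.21, 95% interval -1.22 to -0.22), with limma's adjusted p at 0.641. Of all genes tested, 6.62% were lower without overlap.

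Tbx3 had 5.03, 5.13 and 8.17 FPKM in Mettl3-virus livers, against 4.83, 4.71 and 3.75 in control-virus ethanol-fed livers. The groups did not overlap, but liver 3 alone stood clearly above, and the log2 fold change was 0.37 (SE 0.19, 95% interval -0.08 to 0.81, limma's adjusted p = 0.643). Without Mettl3-virus liver 3 it was 0.17. Of all genes tested, 6.17% were higher without overlap.

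The other 8 members overlapped between the viruses. Glul had 483, 529 and 526 FPKM in Mettl3-virus livers, within the range of the control-virus ethanol-fed livers, and its log2 fold change was 0.19 (95% interval -0.21 to 0.60). Lgr5 had 1.34, 0.760 and 2.38 FPKM in Mettl3-virus livers, so that its lowest and highest livers lay outside the control-virus range on both sides. Its log2 fold change was -0.01 (95% interval -0.60 to 0.58).

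Rnf43 had 1.56, 1.31 and 4.29 FPKM in Mettl3-virus livers, with a coefficient of variation of 69.3%, against 35.8% in control-virus ethanol-fed livers and 11.2% in pair-fed livers. Liver 3 stood apart from the other two, and the 95% interval of the log2 fold change ran from -1.03 to 0.56 around -0.23. Axin2 likewise had 1.24, 1.25 and 2.33 FPKM (log2 fold change 0.06, 95% interval -0.46 to 0.57) and Znrf3 0.739, 0.608 and 1.12 FPKM (log2 fold change -0.20, 95% interval -0.53 to 0.14) in Mettl3-virus livers. Oat had 280.4, 315 and 368 FPKM, Rgn 272, 296 and 345 FPKM and Rspo3 3.44, 3.71 and 3.33 FPKM in Mettl3-virus livers, with log2 fold changes of 0.06, -0.00 and 0.15.

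Mettl3-virus liver 3 was the highest of its group for 8 members: Axin2, Lgr5, Rnf43, Znrf3, Tbx3, Oat, Rgn and Rhbg. Glul and Rspo3 were the exceptions, with liver 2 highest. Among control-virus ethanol-fed livers, liver 1 was highest for 7 members and liver 3 lowest for 8. The part that these single libraries play in the results was not tested beyond leaving each out in turn.

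The third comparison set Mettl3-virus livers against pair-fed livers, with all 9 libraries in the model and 10229 genes tested. It shares its pair-fed livers with the first comparison, so the values below are no independent repeat. Of the 10 members, 6 were lower (Axin2, Lgr5, Rnf43, Znrf3, Oat and Rgn), 0 were higher and 4 did not pass, where 34.9% of all genes were called lower and 13.9% higher. The members' median log2 fold change was -0.65 and that of all genes -0.18. After median-ratio scaling 5 members were lower, where 21.6% of all genes were lower and 25.3% higher, with medians of -0.45 over members and 0.03 over all genes. In 7 of the 10 members every Mettl3-virus liver was below every pair-fed liver, as in 44.2% of all genes tested, and 8 had an unadjusted limma p under 0.05, as in 56.5% of all genes.

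Rnf43 fell by 1.48 (SE 0.30, limma's adjusted p = 0.00438), to a mean of 2.39 ± 1.65 FPKM in Mettl3-virus livers, against 7.84 ± 0.874 in pair-fed livers (SD, n = 3 each). Rgn fell by 1.15 (SE 0.12, adjusted p = 0.000493), to 304 ± 36.9 FPKM, against 676 ± 48.6 in pair-fed livers. Both were below in every Mettl3-virus liver. Lgr5 fell by 1.09 (SE 0.22), Znrf3 by 1.00 (SE 0.14) and Axin2 by 0.77 (SE 0.20), with limma's adjusted p of 0.00447, 0.00124 and 0.0115. Oat fell by 0.50 (SE 0.18, adjusted p = 0.0409), a call lost under median-ratio scaling (-0.23) and without Mettl3-virus liver 1 or 2, ethanol-fed liver 2 or 3, or pair-fed liver 2 or 3. With its fold unchanged, Oat also lost this call in the fit of the 6 libraries (limma's adjusted p = 0.0541), with no filter on low values (adjusted p = 0.0556) and with the replicate block (adjusted p = 0.0550). Its adjusted p ran from 0.0204 to 0.274 over all alternatives, and the other 5 calls held in each of them.

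Tbx3 did not pass against pair-fed livers, at -0.46 (SE 0.18, limma's adjusted p = 0.0578), and its groups overlapped through Mettl3-virus liver 3. Without that liver it was -0.66 with adjusted p = 0.00480, over a range of 0.00480 to 0.227. Rhbg, at -0.54 (SE 0.21, adjusted p = 0.0576), was below in all 3 Mettl3-virus livers and passed without Mettl3-virus liver 3 (-0.65, adjusted p = 0.0357, range 0.0357 to 0.199) and when ethanol-fed liver 1 or 3 was left out. Glul was at -0.22 (SE 0.15, adjusted p = 0.242) and Rspo3 at -0.03 (SE 0.12, adjusted p = 0.816), and median-ratio scaling turned both positive, to 0.05 and 0.18. Without Mettl3-virus liver 3 the number of members called lower was 8. The 10229 genes of the main fit had a median of -0.18, and the genes tested without that liver had -0.23. The members' median was -0.65 and -0.81 in the same 2 fits. Over the fits that left out 1 library, 3342 to 5678 genes were called in this comparison. The share of all genes called lower in the fit without Mettl3-virus liver 3 is not given here. The count of 8 therefore cannot be read as a result about the members.

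Glul and the Wnt feedback genes are both pericentral, and ratios within a liver show whether they moved alike. This ratio was added after the values were seen. The log2 ratio of Lgr5 to Glul was -8.04, -8.40 and -8.51 in ethanol-fed livers, against -7.16, -7.36 and -7.00 in pair-fed livers. Lgr5 was thus lower per Glul transcript in every ethanol-fed liver, by 1.14 on average. Ratios to Glul were also lower without overlap for Rnf43 (difference -1.14), Znrf3 (-0.87), Axin2 (-0.82), Rgn (-0.74) and Tbx3 (-0.55), and higher without overlap for Rhbg (0.63) and Rspo3 (0.16). Of all genes tested, 9.71% had a lower ratio to Glul without overlap and 32.6% a higher one. For these 8 genes the exact two-sided permutation p was 0.1, the smallest that 3 livers against 3 allow, and for Oat, which overlapped, the exact p was 0.6. Adjusted over the 9 ratios by Benjamini-Hochberg, the exact permutation p of the 8 was 0.112. Differences of a ratio do not depend on how the libraries are scaled.

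The Rspo3 to Glul ratio varied least, with values of -7.19, -7.24 and -7.19 in ethanol-fed livers, against -7.32, -7.51 and -7.28 in pair-fed livers. Between the viruses under ethanol, the Rhbg to Glul ratio alone was without overlap, with -7.75, -7.20 and -7.07 in Mettl3-virus livers, against -5.94, -6.51 and -6.30 in control-virus livers. Its difference was -1.09 (exact two-sided permutation p = 0.1, 0.9 adjusted over the 9 ratios), and 11.5% of all genes tested had a lower ratio without overlap and 0.402% a higher one. Between Mettl3-virus and pair-fed livers, the ratios of Axin2, Lgr5, Rnf43, Znrf3 and Rgn were lower without overlap (exact permutation p = 0.1 each, 0.18 adjusted), with 28.7% of all genes tested lower and 28.5% higher without overlap, whereas those of Tbx3, Oat, Rhbg and Rspo3 overlapped.

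**Figure D3:**
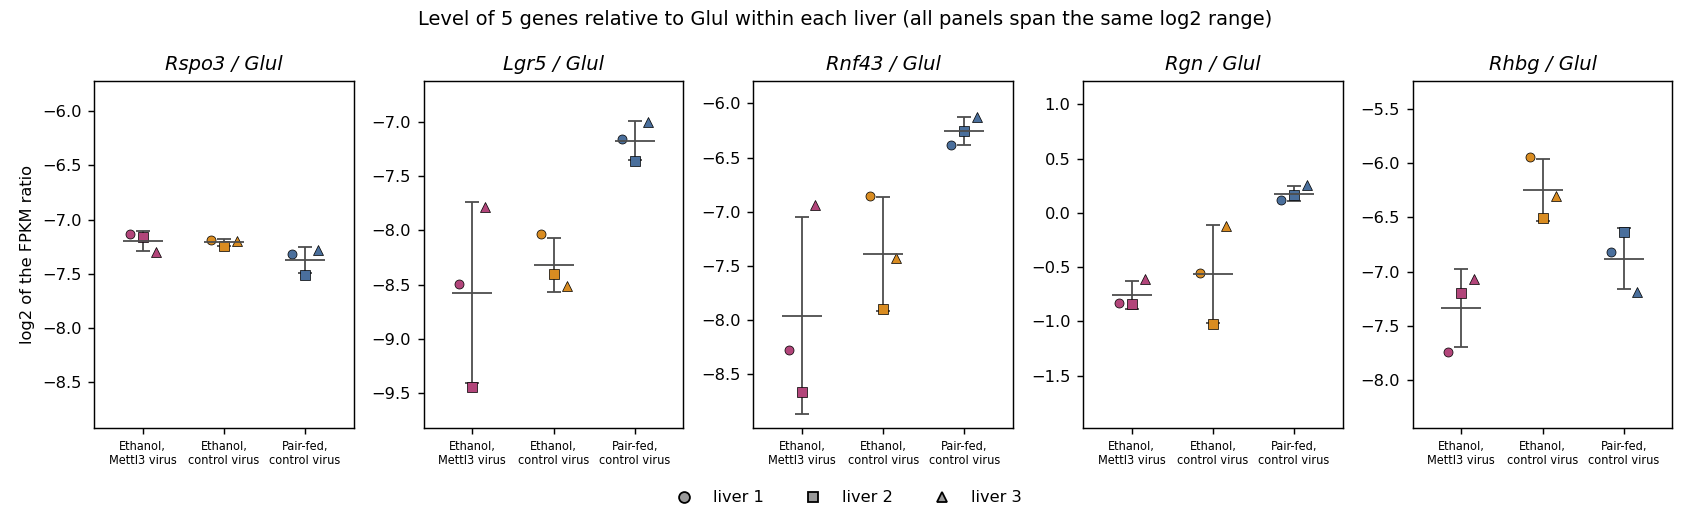
Log2 of the FPKM ratio to Glul within each liver (vertical axes, all spanning the same log2 range) for Rspo3, Lgr5, Rnf43, Rgn and Rhbg, with 1 point per liver and bars for the mean ± SD (n = 3). Lgr5, Rnf43 and Rgn stood lower relative to Glul in all 6 ethanol-fed livers than in the pair-fed livers, and the Rhbg ratio was lower in the Mettl3-virus livers than in the control-virus ethanol-fed livers.

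Likeness of pattern was measured as the root mean square difference of log2(FPKM + 1) over the 9 livers, each gene centred on its pair-fed mean, across 10229 genes. The non-member genes most like Glul were Kctd21 (0.0877), Palld (0.0907) and Tesk1 (0.0910), and 574 genes were closer to Glul than its closest member, Rspo3 (0.183). The genes most like Lgr5 were Hook2 (0.125), Mrc1 (0.126) and Clec7a (0.128), with 277 genes closer than Rgn, its closest member (0.260). For Axin2 they were Dennd5b (0.0663), Pex6 (0.107) and Dkc1 (0.110), with 468 genes closer than Znrf3 (0.214). The members are few among the 10229 genes compared, and the distance also depends on a gene's level. These ranks therefore do not show whether the members moved together.

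Counts of the lists below under ethanol stand beside the shares of all genes tested, 26% lower and 10% higher. After median-ratio scaling these shares were 16.7% lower and 17.6% higher. Around the members, the upstream Wnt ligand genes were too low to follow well. Of 19 ligand genes, 9 were listed and 2 passed the expression minimum in ethanol-fed and pair-fed livers, neither of them called. Wnt2, a central vein ligand, averaged 1.82 ± 0.650 FPKM in ethanol-fed livers and 1.62 ± 0.385 FPKM in pair-fed livers (log2 fold change 0.10, SE 0.18). Wnt9b, named here after its values were seen, averaged 0.501 ± 0.273 FPKM in ethanol-fed livers and 0.145 ± 0.0570 in pair-fed livers, and was below the minimum. Of 6 genes for Wnt secretion, 1 was lower, the cargo receptor gene Tmed5 (-0.34, SE 0.10, limma's adjusted p = 0.0395), with 0 under median-ratio scaling and a call lost when any 1 ethanol-fed liver or pair-fed liver 2 or 3 was left out.

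Receptor genes other than the members were lower in part. Of 9 tested, 4 were lower in ethanol-fed livers and 0 higher, with a median log2 fold change of -0.33, and the 4 were also called under median-ratio scaling. Fzd8, a Frizzled receptor gene, averaged 1.98 ± 0.459 FPKM in ethanol-fed livers and 5.73 ± 0.893 in pair-fed livers (log2 fold change -1.18, SE 0.15, limma's adjusted p = 0.00237). Lgr4, the second R-spondin receptor of hepatocytes, averaged 5.29 ± 0.734 FPKM in ethanol-fed livers and 9.32 ± 0.485 in pair-fed livers (log2 fold change -0.72, SE 0.11, adjusted p = 0.00420). Fzd4 (-0.97) and Fzd7 (-0.90) were the others, of which Fzd7 was not called without pair-fed liver 2 or 3, and the co-receptor gene Lrp6 did not pass (-0.33, adjusted p = 0.0689). Against pair-fed livers, 8 of 10 tested receptor genes were lower in Mettl3-virus livers, where 34.9% of all genes were called lower. Under median-ratio scaling 5 were lower, where 21.6% of all genes were.

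Genes that act inside the cell came next on the pathway. Of 15 genes of the destruction complex and Dishevelled, 2 were lower in ethanol-fed livers, Amer1 (-0.48) and Dvl2 (-0.46), and both dropped under the expression minimum when any 1 pair-fed liver was left out. Without ethanol-fed liver 1 the number lower was 4. Under median-ratio scaling 2 were lower and 2 higher, the kinase gene Csnk1a1 (0.41) and Dvl3 (0.30). Of 13 genes for beta-catenin and its nuclear partners, 4 were lower, where 26% of all genes tested were. One was the co-activator gene Bcl9l (2.37 ± 0.389 FPKM in ethanol-fed livers and 5.51 ± 0.646 in pair-fed livers, log2 fold change -0.95, SE 0.13). The others were the Groucho-family co-repressor genes Tle2 (-0.73) and Tle1 (-0.69), and Tle5 (-0.48) of the same family. The number lower was 6 without ethanol-fed liver 1, 3 without pair-fed liver 2 (Tle1 lost) and 2 without pair-fed liver 3 (Tle1 and Tle5 lost). Under median-ratio scaling the 4 stayed lower and Ctnnb1, the beta-catenin gene, was higher (0.34, limma's adjusted p = 0.0203), against 0.16 and no call on the deposited scale. Median log2 fold changes of these lists were -0.12 and -0.09, near the -0.14 of all genes. Of the Wnt inhibitor genes, 2 of 11 listed could be tested and both were lower, Kremen1 (-0.32) and Notum (-0.84), but neither under median-ratio scaling, nor without ethanol-fed liver 2 or 3 or any 1 pair-fed liver.

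Other Wnt targets and pericentral genes were lower in larger numbers. Of 13 other Wnt target genes tested, 7 were lower and 0 higher, with a median log2 fold change of -0.60, and 4 were lower and 1 higher under median-ratio scaling. This count depended on single livers, at 2 if pair-fed liver 2 or 3 was left out, 3 for ethanol-fed liver 2, 4 for ethanol-fed liver 3 or pair-fed liver 1, and 8 for ethanol-fed liver 1. Cyp2e1, the ethanol-oxidising cytochrome P450 of pericentral hepatocytes, averaged 1395 ± 139.5 FPKM in ethanol-fed livers and 5022 ± 610.0 in pair-fed livers (log2 fold change -1.84, SE 0.13). Zfp703 (-0.60), a transcriptional repressor, and Cyp1a2 (-0.90) were also lower, Cyp1a2 not without pair-fed liver 2 or 3. Of the 13 genes, 7 stand on the next list too (Cyp2e1, Cyp1a2, Slc1a2, Lect2, Prodh, Cldn2 and Slc13a3), and Notum is also among the inhibitors, so these counts are not separate.

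Of 32 other pericentral hepatocyte genes, 24 were lower and 0 higher in ethanol-fed livers, with a median log2 fold change of -0.79. Scaled by median ratios, 19 were lower and 1 higher, the claudin gene Cldn2 (0.59). On the deposited scale the number lower was 14 without pair-fed liver 2 and 15 without pair-fed liver 3. Alad, an enzyme of heme synthesis, averaged 11.5 ± 0.785 FPKM in ethanol-fed livers and 25.6 ± 0.587 in pair-fed livers (log2 fold change -1.09, SE 0.09). Nr1i3, the nuclear receptor CAR, averaged 44.5 ± 14.8 FPKM in ethanol-fed livers and 156 ± 7.89 in pair-fed livers (log2 fold change -1.84, SE 0.21). Akr1c6 (-1.41), Nrn1 (-1.67) and Blvrb (-0.88), the biliverdin reductase B gene, were lower as well. In limma these 5 genes had adjusted p of 0.00222 or less, and each call held when any 1 library was left out.

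Periportal genes moved both ways. Of 22 tested, 8 were higher and 6 lower in ethanol-fed livers, with a median log2 fold change of 0.16, and 8 were higher and 2 lower under median-ratio scaling. The count of higher genes was 5 without ethanol-fed liver 3 or pair-fed liver 1 or 2, and that of lower genes 3 without ethanol-fed liver 3 or pair-fed liver 2 and 1 without pair-fed liver 3. Tat, the tyrosine aminotransferase, averaged 527 ± 91.2 FPKM in ethanol-fed livers and 158 ± 30.8 in pair-fed livers (log2 fold change 1.73, SE 0.18), and Sdsl, a serine dehydratase-like gene, rose by 1.05 (SE 0.11). Hsd17b6, a steroid dehydrogenase gene, was at 51.7 ± 6.41 FPKM in ethanol-fed livers and 239 ± 32.9 in pair-fed livers (log2 fold change -2.18, SE 0.14). Whether the pericentral and periportal lists differ was not tested.

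The ammonia pathway that ends in Glul and Rhbg also moved both ways. Of 21 tested genes for ammonia, glutamate and proline, 9 were higher and 5 lower in ethanol-fed livers, with 5 higher without ethanol-fed liver 3 or pair-fed liver 2. Among all genes tested, 10% were higher and 26% lower. Of the 21, 5 are also on the periportal list (Gls2, Arg1, Cps1, Ass1 and Asl), and Slc1a2 and Prodh are on the pericentral one. The urea cycle genes Asl and Arg1 averaged 244 ± 43.0 and 1187 ± 184 FPKM in ethanol-fed livers, against 106.5 ± 10.6 and 610.2 ± 9.57 in pair-fed livers, with log2 fold changes of 1.18 and 0.95. The mitochondrial ornithine carrier gene Slc25a15 rose by 0.76. The aspartate-glutamate carrier gene Slc25a13 fell by 1.22, the glutamate dehydrogenase gene Glud1 by 0.71, and the amino acid transporter gene Slc38a4 by 0.90. In limma the adjusted p of these 6 was at most 0.00468.

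Rgn acts in ascorbate synthesis, and of the 5 other genes of that path 2 were lower in ethanol-fed livers. Gulo, which encodes the last enzyme of the path in mice and is also counted with the pericentral genes, averaged 96.3 ± 21.8 FPKM in ethanol-fed livers and 211 ± 19.0 in pair-fed livers (log2 fold change -1.15, SE 0.17, limma's adjusted p = 0.00352). Ugdh was at -0.69 (adjusted p = 0.0285) and was not called under median-ratio scaling. With ethanol-fed liver 1 left out the number lower was 4, and with ethanol-fed liver 2 or 3 or pair-fed liver 2 or 3 left out it was 1.

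**Figure D4:**
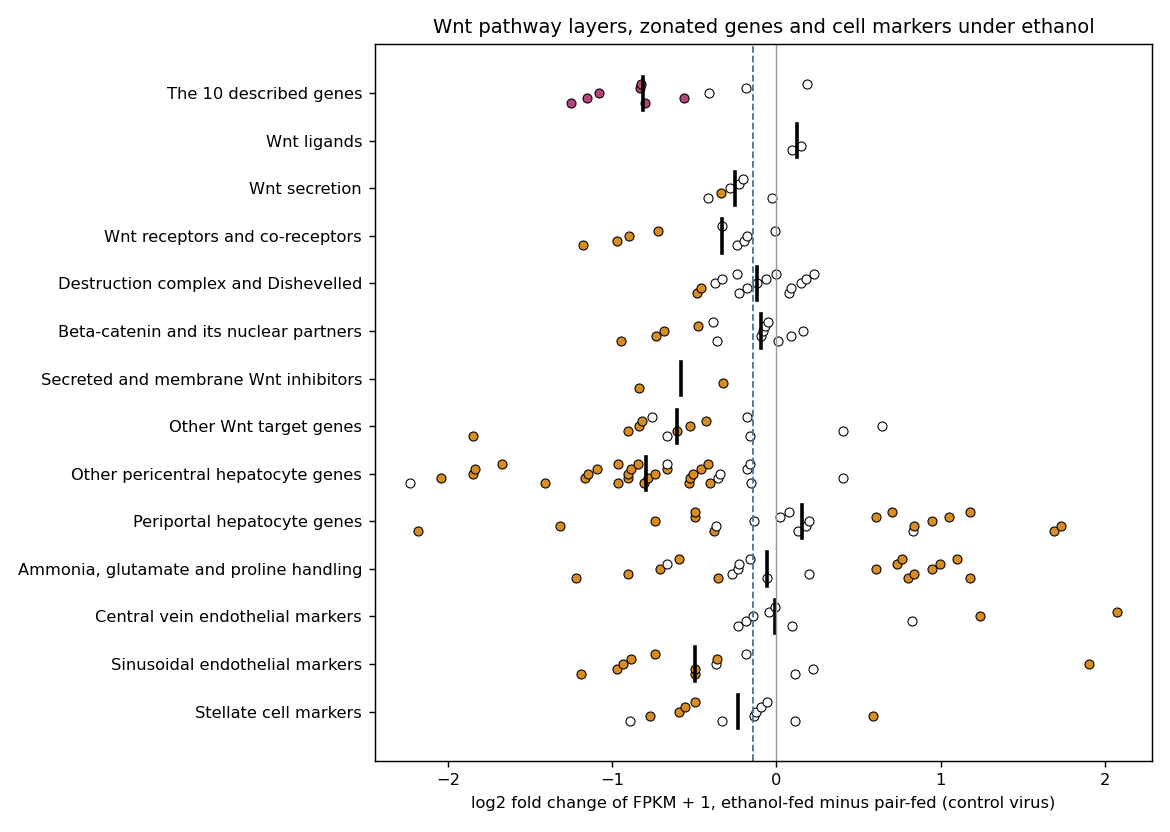
Log2 fold change of FPKM + 1 in ethanol-fed minus pair-fed livers with the control virus (horizontal axis) for each tested gene of 14 lists (rows), filled where limma called the gene, with a black bar at each list's median and a dashed line at the median of all genes, -0.14. The median was -0.81 for the 10 described genes, -0.79 for other pericentral genes, 0.16 for periportal genes and -0.01 for central vein endothelial markers.

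Markers of the cells that surround the pericentral hepatocytes were measured in the same libraries. Summed over 13 of 13 listed markers, the central vein endothelial list was at 438 to 463 FPKM in Mettl3-virus livers, 439 to 473 in ethanol-fed livers and 478 to 508 in pair-fed livers. Clu, which encodes the secreted chaperone clusterin, made up 83.8% to 91.9% of this sum, so the sum is mostly the level of 1 gene. Without Clu the pair-fed livers were lowest instead of highest, with 50.03 to 68.1 FPKM in Mettl3-virus livers, 57.5 to 75.7 in ethanol-fed livers and 38.9 to 42.5 in pair-fed livers. Of its 9 tested markers 2 were higher in ethanol-fed livers, Thbd (log2 fold change 2.07) and Fabp4 (1.24), and 0 lower, with 3 higher under median-ratio scaling. Sinusoidal endothelium, over 13 of 13 markers, was at 144 to 173 FPKM in Mettl3-virus livers, 134 to 155 in ethanol-fed livers and 183 to 209.9 in pair-fed livers. Of these 13 markers 8 were lower and 1, Lyve1 (1.90), higher, and under median-ratio scaling 5 were lower and 2 higher. With 1 library left out the number lower was 3 for pair-fed liver 2 or 3, 4 for pair-fed liver 1, and 5 for ethanol-fed liver 2 or 3.

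Stellate cells also make Rspo3. Their markers summed to 193 to 218 FPKM in Mettl3-virus livers, 187 to 225 in ethanol-fed livers and 227 to 264 in pair-fed livers, over 13 of 13 markers. Of 12 tested, 4 were lower and 1 higher, the growth factor gene Hgf (0.59), and 1 was lower and 1 higher under median-ratio scaling. Among all genes tested, 26% were lower and 10% higher, and 16.7% and 17.6% under that scaling. The number lower was 2 without ethanol-fed liver 3 or pair-fed liver 3 and 1 without pair-fed liver 2. None of the listed markers was at 0 in all libraries. Within each of these lists 0 genes were called between the viruses under ethanol. The part of these cells in the members' results was not tested.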

How the data were processed

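Liver RNA was sequenced in 9 libraries, 3 in each of 3 groups taken from the sample titles. Per the submitters' processing notes, fastp, HISAT2 and HTSeq were used with mm10, and versions and strand setting are not given in the sources used here. The authors deposited 2 tables with FPKM per library, each with 2 groups, of 16842 and 16470 genes. Their shared ethanol-fed columns differed by a relative 1.08e-06 at most, and the tables were joined on the gene identifier (17046 genes). Further columns, per the file headers, are a DESeq2 base mean (signal: mean of read counts over size factors) overall and per group, and the authors' linear fold (ratio) with its log2, and the p-value and q-value of the authors' DESeq2 test, which were only quoted.

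The members and all gene lists were chosen with earlier results of these data known, so no p-value is given over a list. Fold changes come from limma 3.58.1 in R 4.3.3 (lmFit, eBayes with trend and robust settings) on log2(FPKM + 1). A gene was tested if 3 or more libraries of the fit reached 1 FPKM, and p was adjusted by Benjamini-Hochberg over all genes tested, with a threshold of 0.05. Folds of low genes come out too small on this scale. Ethanol-fed minus pair-fed and Mettl3 virus minus control virus were fitted on their 6 libraries, Mettl3 virus minus pair-fed on all 9. The base means and FPKM gave whole reads for 100% of values within a tolerance of 0.05, on which limma-voom was run as an alternative and called 3620, 1 and 5008 genes in the 3 comparisons. No negative binomial model was fitted to the recovered reads. The fits were tested on simulated data. Intervals are 95% intervals of the fold change, and errors are SD over n = 3 libraries unless given as SE.

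Alternatives were a pseudocount of 0.1, no filter, median-ratio scaling, limma-voom, the replicate number as a block, another set of libraries in the fit, and leaving out each library. Named genes are Mettl3, the members, Tbx3os1, up to 6 genes per list with the smallest p under ethanol, and for Glul, Lgr5 and Axin2 the 3 genes most alike. Gene coordinates and promoter windows are from RefSeq (GRCm38). Python 3.11.15 with numpy 2.4.6, pandas 2.3.3, scipy 1.17.1 and matplotlib 3.10.9 made the tables, exact tests and figures.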

Additional observations from a re-analysis of the deposited data

How the results depend on the processing

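The direction of the 7 calls under ethanol and the call of 6 of them held in every alternative, and Oat lost its call as given above. The number of all genes called in ethanol-fed minus pair-fed livers ran from 1538 to 4743 over the fits that left out 1 library, with 2392 without ethanol-fed liver 2, 2157, 1538 and 1541 without pair-fed liver 1, 2 or 3, and 4743 without ethanol-fed liver 1. In Mettl3-virus minus control-virus livers it was 3 in the fit of all 9 libraries, 0 with no filter on low values, 0 with the replicate block and 0 to 2 without 1 library. The single call, Mettl3, was lost with no filter, with the block, and without Mettl3-virus liver 1 or 3 or ethanol-fed liver 2 or 3, with its log2 fold change between 2.40 and 2.78 over all alternatives. Members that were not called changed sign between the viruses under median-ratio scaling (Lgr5 0.0344, Rgn 0.0816) and over the fits without 1 library (Axin2 -0.13 to 0.21, Lgr5 -0.26 to 0.22, Oat -0.0386 to 0.157, Rgn -0.0954 to 0.0741). Against pair-fed livers the scaling turned Glul (0.0545) and Rspo3 (0.18). The cause was not tested. The number of members called lower stayed within 1.5 times its value in every alternative, at 6 to 7 under ethanol and 5 to 8 for Mettl3-virus minus pair-fed livers without 1 library. In the latter fits the number of all genes called ran from 3342 to 5678. The labels do not say whether replicate numbers pair the samples, and correlations over so few livers cannot decide it. Deviations of same-numbered livers correlated at -0.19, -0.11 and 0.11 between ethanol-fed and pair-fed livers. Between the viruses they correlated at -0.35, 0.39 and -0.41, and not every liver correlated best with its own number. With the replicate block, 6 members were lower under ethanol, 0 changed between the viruses and 5 were lower in Mettl3-virus minus pair-fed livers, and the genes called numbered 2778, 0 and 4472, against 3625, 1 and 4996 without it. Axin2, Lgr5, Rnf43, Znrf3, Rhbg and Rspo3 had between 133 and 1438 reads a liver, and Znrf3 lay near the expression minimum.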

Other observations

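Markers of other liver cells were summed in the same libraries. Their counts under ethanol stand beside 26% lower and 10% higher among all genes tested. Kupffer cell markers (10 of 10 listed) were at 149.6 to 263 FPKM in Mettl3-virus livers, 170.05 to 251 in ethanol-fed livers and 311 to 354 in pair-fed livers. Of the 10, 8 were lower in ethanol-fed minus pair-fed livers and 0 higher, among them Folr2 (log2 fold change -0.81) and Adgre1 (-0.93), against 7 under median-ratio scaling, 5 without pair-fed liver 1 and 2 without pair-fed liver 2 or 3. Neutrophil markers (8 of 10 listed) were at 49.2 to 106 FPKM in Mettl3-virus livers, 9.32 to 74.2 in ethanol-fed livers and 7.51 to 11.6 in pair-fed livers. Of 4 tested, S100a8 alone was higher (2.10), and 4 were without ethanol-fed liver 1, the liver with the low sum and with the highest level of 7 of the 10 Wnt-dependent genes in its group. S100a8 was not called without ethanol-fed liver 2 or 3 or any 1 pair-fed liver. Cholangiocyte markers (8 of 9 listed) were at 26.7 to 51.3 FPKM in Mettl3-virus livers, 28.9 to 42.1 in ethanol-fed livers and 32.3 to 46.1 in pair-fed livers, with 1 of 5 higher, Sox9 (0.76), which missed the expression minimum without any 1 ethanol-fed liver. Of 14 tested hepatocyte markers 3 were higher, the secreted protein genes Hpx (1.47), Fgb (1.21) and Ahsg (0.56), and 1 lower, Cebpa (-0.92). The number higher was 1 without pair-fed liver 2 or 3. Tbx2, a T-box relative of Tbx3, was not called (0.14), and Rspo1 was the single other R-spondin listed and was below the expression minimum. The part of these cells in the results above was not tested.

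Sp5, a Wnt target named after its values were seen, averaged 0.450 ± 0.337 FPKM in Mettl3-virus livers, 0.307 ± 0.194 in control-virus ethanol-fed livers and 1.02 ± 0.220 in pair-fed livers (SD, n = 3 each) and was below the expression minimum.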
